A study of Mus musculus with 4 samples.

Results

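The comparison described here set the RNA of mature osteoclasts, at 72 h of induction, against that of pre-osteoclasts, at 24 h. It was made on 33180 of the 60804 probes of the deposited array table, those marked as well above background on both the 24 h and the 72 h array. For each of them the log2 signal at 24 h was subtracted from the log2 signal at 72 h, so that a positive difference means a higher signal at 72 h and a difference of 1.00 is 2-fold. A name, a host gene and a lncRNA class could be given to 1778 of these probes from the study's lists of lncRNAs that differed from 0 h. Of 3937 probes with a name in all, 685 were well above background only at 24 h, 698 only at 72 h and 776 at neither. The other 31402 members had no name here and entered only the counts.

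The samples were RAW264.7 cells, a mouse macrophage-like line that forms osteoclast-like cells in culture, given RANKL at 100 ng/ml and M-CSF at 50 ng/ml. By the study's methods, total RNA was depleted of rRNA, amplified with random primers into Cy3-labelled cRNA and hybridised to 4 Arraystar arrays (Mouse LncRNA V3.0), 1 array per time point, for the samples called monocyte (0 h), pre-osteoclast (24 h), mature osteoclast (72 h) and activated osteoclast (96 h). All of them come from one cell line, without the marrow and bone cells that surround osteoclasts in an animal. With 1 array per time point there are no replicates, no test was possible and every difference below is a description of these arrays, without an error.

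Osteoclasts are the cells that resorb bone, and they form when cells of the monocyte and macrophage lineage fuse. M-CSF keeps the precursors alive, and RANKL switches on, through NF-κB and the transcription factor NFATc1, the genes for fusion, acid secretion and matrix digestion. Long noncoding RNAs are transcripts over a set length that encode no protein. Some lie between genes, and others run along the exons or introns of a host gene on the same strand, on the opposite strand, or away from its start.

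The arrays lay on 2 slides. The 0 h and 72 h arrays shared slide 1 and the 24 h and 96 h arrays shared slide 2, so that the slide and the time cannot be told apart in the comparison of 72 h with 24 h. Local background had a median of 33 on slide 1 and 26 on slide 2, and no spot was saturated. Between 58.8% and 66.8% of the probes were well above background on an array, and repeated spots of one probe had a median SD of 0.0702 on the log2 scale at 24 h and 0.0693 at 72 h. Each of the 1778 named probes had 1 spot. The table does not name its mRNA probes, so that the osteoclast label could not be checked against Acp5, Ctsk or Dcstamp. The names used below belong to noncoding transcripts and not to the mRNAs of their host genes. By annotation 33 of the 1778 named probes also match an mRNA, and whether others do was not tested. As in any bulk sample, fewer cells of a type and less RNA per cell cannot be told apart.

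The probes that carry the main differences are printed first, since on this array a value is the brightness of 1 spot of a 60-base probe. Capitals mark the letters AATAAA, those of the polyadenylation signal, where the probe holds them, and all other bases are in lower case. A match describes the letters only. Whether they act as a signal, and where the probe lies in its transcript, was not tested. Each probe is followed in the text by its value, and positions refer to the mouse build GRCm38. The first set holds probes of transcripts that were brighter at 72 h.
V00821: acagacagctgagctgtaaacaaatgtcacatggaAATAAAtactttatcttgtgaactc
M13680: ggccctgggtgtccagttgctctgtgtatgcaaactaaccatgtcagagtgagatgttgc
Cp: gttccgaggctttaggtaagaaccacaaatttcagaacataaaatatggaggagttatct
Atf3: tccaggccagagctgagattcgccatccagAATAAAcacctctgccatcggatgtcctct
Slc7a11: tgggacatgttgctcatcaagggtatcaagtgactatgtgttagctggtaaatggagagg
LOC100043315: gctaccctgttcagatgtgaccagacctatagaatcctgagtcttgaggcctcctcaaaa
AK089350: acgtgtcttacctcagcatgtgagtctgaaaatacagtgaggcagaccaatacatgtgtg

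The second set holds probes of transcripts that were brighter at 24 h, none of which contains AATAAA.
Arid1b: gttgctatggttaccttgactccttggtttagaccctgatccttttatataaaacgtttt
Slc9b2: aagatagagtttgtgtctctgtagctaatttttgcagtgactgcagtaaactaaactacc
Gper1: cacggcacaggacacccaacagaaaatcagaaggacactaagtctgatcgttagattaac

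Of the 33180 probes, 2688 (8.1%) had a signal at 72 h that was 2-fold or more above that at 24 h, and 2515 (7.58%) were lower by 2-fold or more, together 15.7%. The median difference was -0.04, and the median size of a difference, whatever its sign, was 0.45. Past 4-fold the split was uneven, with 531 probes (1.6%) higher and 162 (0.488%) lower. The limit of 2-fold cut through a dense part of the range: 486 of the probes called higher lay within 0.1 above it, and 601 probes lay within 0.1 below it.

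Brighter probes were more often higher at 72 h by 2-fold or more, although their median difference was lower. With the probes in 4 equal groups by mean brightness, from the dimmest to the brightest, 6.24%, 7.56%, 8.49% and 10.1% were higher at 72 h by 2-fold or more. The share that was lower by 2-fold or more went the other way, with 8.25%, 8.22%, 7.69% and 6.16%. The median difference of the same groups fell with brightness, from 0.027 and 0.007 to -0.060 and -0.115. The median probe of the brightest group was thus slightly lower at 72 h. In the scatter of both arrays, the points past 4-fold lie mostly on the side of 72 h.

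**Figure D1:**
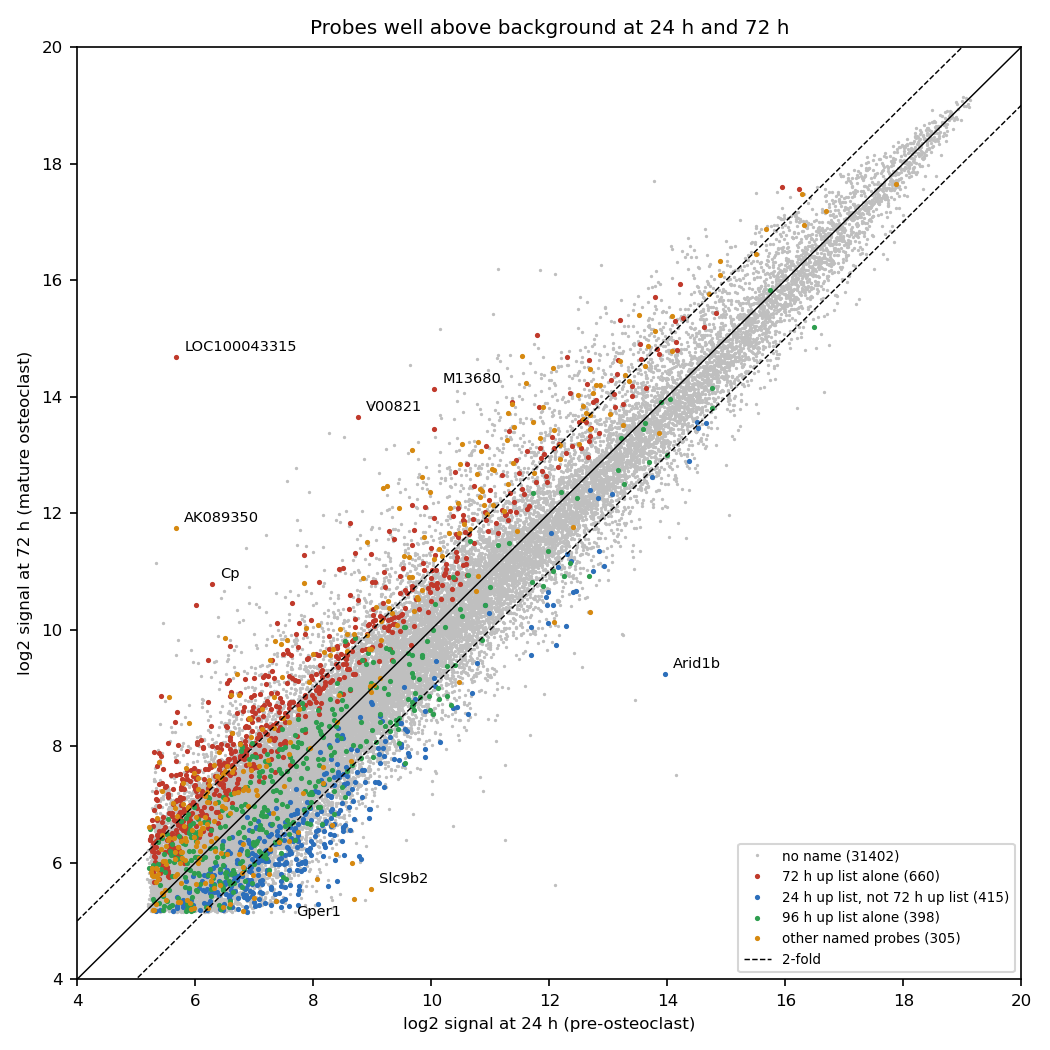
Log2 signal of each of the 33180 probes at 24 h (x axis) against 72 h (y axis), with the solid line at equal signal and the dashed lines at 2-fold. Grey points have no name, and coloured points are named lncRNAs, by the list that named them. The named points of the 72 h list alone lie above the solid line and those of the 24 h list below it, as their selection fixed, and the points of V00821, M13680, Cp, Arid1b and Slc9b2 lie far outside the dashed lines.

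The other 2 arrays show where each difference lay. A probe could meet several of the patterns below, and it was counted once, under the first that it met in the order given here. Among the 2638 probes that were higher at 72 h by 2-fold or more and well above background on all 4 arrays, 1051 (39.8%) had both slide 1 arrays above both slide 2 arrays, by 2-fold or more. Another 447 (16.9%) had the 72 h array alone 2-fold or more above the other 3 arrays, and 116 (4.40%) had the 24 h array alone below the other 3. Among the probes that met none of these, 16 had both 72 h and 96 h 2-fold or more above 0 h and 24 h, as a difference that lasted to the end of the course would.

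The probes that were lower at 72 h, counted in the same order with the slide first, were made up otherwise. Of 2472 such probes, 922 (37.3%) had the 72 h array alone 2-fold or more below the other 3 arrays, and 203 (8.21%) followed the slide. The 24 h array stood alone above the others in 95 probes, and 72 h and 96 h together stood below 0 h and 24 h in 32. The part of the slide in these counts was not tested. Without the probes that followed the slide, 1637 were higher and 2312 lower, and among the named lncRNAs 414 and 199. This also leaves out probes that followed the slide and met a later pattern too. Among the other pairs of arrays on different slides, the share of probes 2-fold or more apart was 7.81% for 0 h with 24 h, 12.9% for 0 h with 96 h and 23.5% for 72 h with 96 h. For the pairs on one slide it was 8.49% (0 h with 72 h) and 10.9% (24 h with 96 h).

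**Figure D2:**
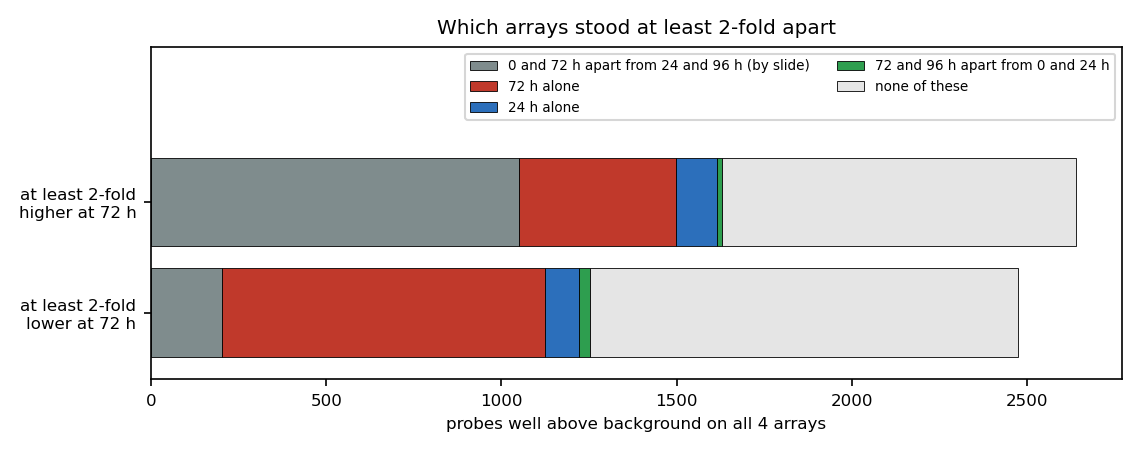
Number of probes (x axis) that were well above background on all 4 arrays and higher by 2-fold or more (upper bar) or lower (lower bar) at 72 h than at 24 h, split by which arrays stood 2-fold or more apart from the others. The part that followed the slide is 1051 of 2638 in the upper bar and 203 of 2472 in the lower bar, and the part in which 72 h stood alone is 447 and 922. A probe that met several patterns is counted once, with the slide first.

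Among the 1778 named lncRNAs, 502 were higher at 72 h by 2-fold or more and 330 lower by 2-fold or more. These counts are well over the 8.1% and 7.58% of all probes, but the names come from lists that the study chose on the change from 0 h on these same arrays, so that they are not independent evidence of a direction. Of the 660 members that only the list of lncRNAs raised at 72 h named, 364 were higher at 72 h by 2-fold or more, none was lower, and the median was 1.05. The 226 members named only by the list raised at 24 h had a median of -1.06, and 121 of them were lower by 2-fold or more. The lists of lncRNAs reduced from 0 h were held here mostly in part. The list reduced at 24 h alone named 141 members and that reduced at 72 h alone 8, while a list reduced at 96 h was not among the sources. The shares and median over all named lncRNAs, given beside the lists and classes below, thus rest mainly on lncRNAs raised from 0 h. The list raised at 96 h used neither of the arrays compared here. Its 398 members that no other list named had a median of -0.22, with 8 (2.01%) higher at 72 h by 2-fold or more and 54 (13.6%) lower by 2-fold or more. Setting aside the members that other lists named did use both arrays, so that these values are not independent either. The 189 also raised at 24 h had a median of -1.24, the 34 also raised at 72 h 0.66, and the 47 raised at all times 0.13. The 96 h list was chosen on the 0 h and 96 h arrays, which each share a slide with one of the arrays compared here.

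Large differences that stood on the 72 h array alone came from the immunoglobulin heavy chain locus on chromosome 12. This locus, which B cells rearrange to make antibodies, carries the mu constant region in the stretch covered here. V00821 (uc007pgs.1, chr12:113418558-113421009, minus strand, intergenic class) had log2 signals of 8.13, 8.75, 13.64 and 4.82 at 0, 24, 72 and 96 h. The 72 h array was the brightest and the 96 h array the dimmest of the 4, and the difference of 4.89 between 72 h and 24 h is 29.6-fold. M13680 (uc007pgt.1, chr12:113420741-113420935, minus strand) lies inside the span of V00821 and has a probe of its own, with signals of 9.67, 10.05, 14.13 and 9.20 at 0, 24, 72 and 96 h. Its difference was 4.07, or 16.8-fold. Both probes therefore stood apart on the 72 h array alone. The probes of T cell receptor transcripts did not share this, with TCRA at -1.21 to -0.99 over 3 probes.

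The largest difference of all probes was that of LOC100043315 (NR_015482, chr15:95097621-95149318, minus strand), an intergenic transcript 1524 bases from Tmem117. Its signals were 5.91, 5.68, 14.68 and 5.90 at 0, 24, 72 and 96 h, a difference of 9.00. The scanner software marked its 72 h spot as not uniform, although the median signal of the spot was 29240 against a local background of 36, and there is no further spot of it. Of all 33180 members 16 had such an outlier mark at 24 h or 72 h, 11 of them higher by 2-fold or more and 2 lower by 2-fold or more. AK089350 (chr8:66495058-66496946, plus strand, intergenic) came next among the named probes, with 8.06, 5.67, 11.74 and 5.43 at 0, 24, 72 and 96 h and a difference of 6.07. Both arrays of slide 1 were brighter for it than both arrays of slide 2, and the same holds for Gm5401 at 4.41, Spag16 at 3.45, Hspe1-ps2 at 3.40 and AK052417 at 3.40. Thus 5 of the 10 largest differences upward among named lncRNAs followed the slide. For all of these but Hspe1-ps2, the 72 h array was also 2-fold or more above all other arrays. Of the 50 largest over all probes, 6 had a name.

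Hspe1-ps2 carries the name of a pseudogene of Hspe1, the small mitochondrial chaperonin, and lies at chr12:81399811-81400123. It was bright on slide 1, with 13.39 at 0 h and 13.08 at 72 h, and dimmer on slide 2, with 9.68 at 24 h and 10.01 at 96 h. A130023I24Rik, at chr7:134227473-134230705 and 2376 bases from Adam12, stood apart on the 72 h array alone, with 5.69, 5.42, 8.85 and 5.53 and a difference of 3.43. Adam12 encodes a membrane metalloprotease.

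**Figure D3:**
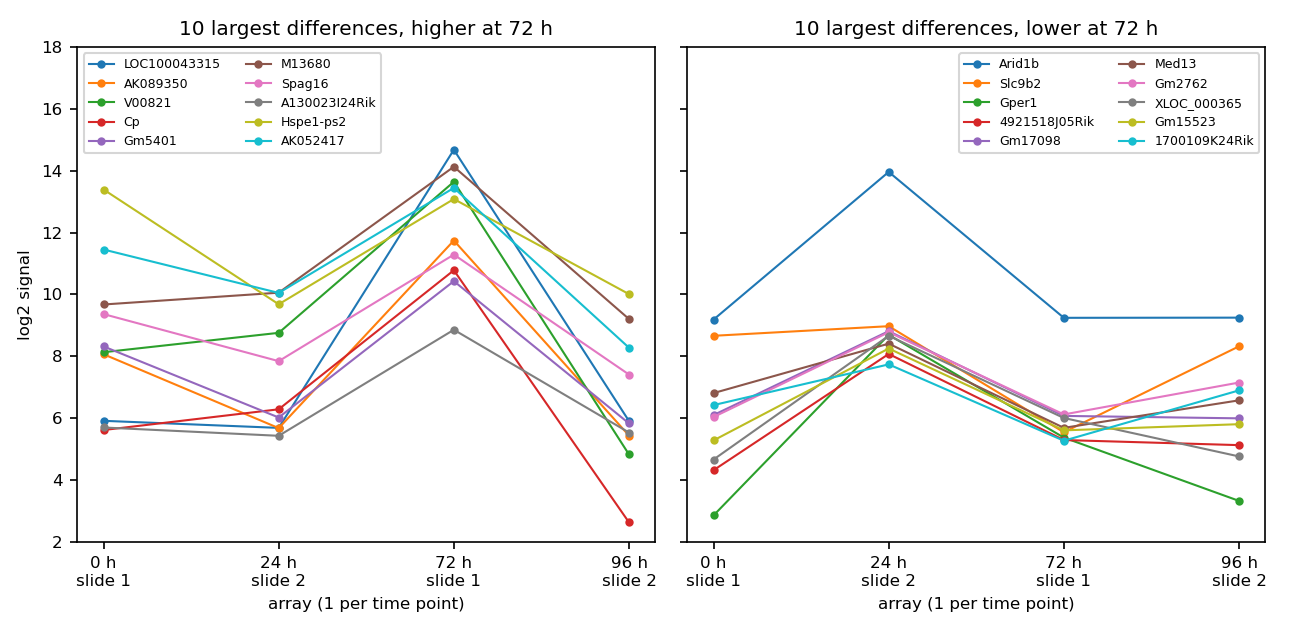
Log2 signal (y axis) of the 10 named lncRNAs with the largest positive difference (left) and the 10 with the largest negative difference (right) between 72 h and 24 h, on each of the 4 arrays (x axis, with the slide of each array). Each point is 1 spot, and lines join the arrays of a transcript. V00821 and M13680 peak at 72 h alone, Hspe1-ps2 is high on both arrays of slide 1, Arid1b peaks at 24 h alone, and Slc9b2 is low at 72 h alone.

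On the other side, the largest difference among named transcripts was that of Arid1b (ENSMUST00000146703, chr17:5040577-5127640, plus strand), a noncoding transcript over the exons of the gene for a subunit of the BAF chromatin remodelling complex. Its signals were 9.18, 13.96, 9.24 and 9.25 at 0, 24, 72 and 96 h. The 24 h array alone was high, and the difference of -4.72 made it 26.3-fold higher at 24 h. Gm17098, which lies opposite to the start of Aph1c, a gamma-secretase subunit, also stood alone at 24 h, with 6.10, 8.81, 6.07 and 5.99 and a difference of -2.74. Gm15523, antisense within an intron of Asb2, was of the same kind, with 5.28, 8.25, 5.60 and 5.80 and a difference of -2.65.

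Slc9b2 (ENSMUST00000126034, chr3:135307730-135324833, plus strand) overlaps the exons of the gene for a sodium/hydrogen antiporter that is abundant in osteoclasts. It had 8.66, 8.97, 5.54 and 8.32 at 0, 24, 72 and 96 h, and its difference of -3.43 is 10.8-fold. The 72 h array alone was low. Gper1, of the gene for a membrane oestrogen receptor, had 8.69 at 24 h and 5.37 at 72 h, and was not well above background at 0 h and 96 h. Its difference was -3.32. Med13, of a subunit of the Mediator kinase module, had 6.81, 8.41, 5.68 and 6.57 and a difference of -2.72.

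Few named transcripts were counted under a difference at both later time points, the last pattern in the order. Among those that met no earlier pattern, 9 had 72 h and 96 h both above 0 h and 24 h by 2-fold or more. Atf3, counted under 72 h alone, met this too. Akr1b3 was the one counted with both below, with 12.06, 12.69, 10.30 and 9.38 at 0, 24, 72 and 96 h. Akr1b3 encodes aldose reductase, which turns glucose into sorbitol. Gp49a, of an immunoglobulin-like receptor of myeloid cells, was among the higher ones with 9.82, 9.37, 11.55 and 10.98. Fth1, of the ferritin heavy chain, which stores iron, had 7.33, 6.86, 8.35 and 8.34. Clec12a, of an inhibitory lectin of myeloid cells, had 8.70, 8.41, 9.72 and 10.05.

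Transcripts of osteoclast genes differed in direction, in part as the lists that named them fixed. Of 34 such genes, 24 had no probe among the names, 4 had a probe that was dim on one of the arrays or both, and 6 were measured on both. Of these 6, 2 were higher by 2-fold or more, 2 lower by 2-fold or more and the median was -0.10. Over all probes the values were 8.1%, 7.58% and -0.04, and over all named lncRNAs 28.2%, 18.6% and 0.45. Ppargc1b, of the coactivator PGC-1β that drives mitochondrial growth in osteoclasts, was higher with 7.26, 6.79, 7.99 and 9.81 at 0, 24, 72 and 96 h, and it came from the 96 h list alone. Mmp9, of a gelatinase that osteoclasts secrete, was lower with 8.90, 7.42, 6.35 and 8.06, a difference of -1.07. Slc9b2, given above, was the lowest of the list and the one of these 4 that stayed past 2-fold with normexp background correction, where Ppargc1b was at 0.79, Runx2 at 0.74 and Mmp9 at -0.66. Runx2 had a difference of 1.06, Atp6v0a4, of a subunit of the proton pump, 0.42, and Stim1, of a calcium sensor of the endoplasmic reticulum, -0.62. The choice fixed the signs of Runx2, named by the 72 h list alone, and of Stim1, named by the list raised at 24 h alone. Slc9b2 was named only by the list reduced at 72 h, a choice that favours a negative difference. Atp6v0a4 came from the 96 h list alone. Runx2 is also the main transcription factor of osteoblasts, and of the 9 genes listed as markers of osteoblasts, B cells and T cells it was 1 of the 3 that were measured on both arrays, with Il2ra at 1.04 and Col1a1 at -1.16. Il2ra was named by the list reduced at 24 h and Col1a1 by those raised at 24 h and 96 h, so that the choice bears on these signs too. The part of other cell types in these values was not tested.

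Of 5 negative regulators of osteoclast formation, 2 had a transcript measured on both arrays. Irf8, of a macrophage transcription factor that restrains NFATc1, had 9.18, 9.53, 11.05 and 9.27 at 0, 24, 72 and 96 h. The 72 h array stood alone, with a difference of 1.53 from 24 h. Bcl6, of a transcriptional repressor, had 7.76, 8.50, 9.40 and 6.55 and a difference of 0.90.

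The stress response of amino acid shortage and unfolded protein was the list with the most transcripts higher at 72 h after that of macrophage genes. In this response the kinases of eIF2α raise the translation of ATF4, which turns on amino acid transporters, tRNA synthetases and further transcription factors, while IRE1 and chaperones act on the folding load. Of its 27 genes, 4 had no named probe and 5 a dim one. Among its 18 members, 9 were higher at 72 h by 2-fold or more, 1 was lower by 2-fold or more and the median was 0.97. Over all probes the values were 8.1%, 7.58% and -0.04, and over all named lncRNAs 28.2%, 18.6% and 0.45. Since 11 of the 18 were named by the 72 h list alone, their direction was largely fixed by the choice. Of all 660 members that only this list named, 55.2% were higher by 2-fold or more, with a median of 1.05. Among the transcription factors, Atf3 (ENSMUST00000131854, chr1:191171424-191183108, minus strand) had 7.66, 7.38, 10.11 and 8.68 at 0, 24, 72 and 96 h. It was the highest at 72 h, 2.73 above 24 h, and the 96 h array kept part of this.

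The amino acid transporters of the list that were bright on both arrays had positive differences, while Slc7a3, of a transporter of basic amino acids, had 6.12 at 24 h and was dim at 72 h. Slc7a11 (ENSMUST00000142932, chr3:50415969-50443613, minus strand), of the cystine/glutamate exchanger, had 5.87, 5.71, 8.01 and 5.44 at 0, 24, 72 and 96 h, a difference of 2.30. Slc3a2, of the heavy chain that pairs with Slc7a11 and with Slc7a5, had 10.28, 9.89, 12.10 and 10.60, a difference of 2.21. Slc7a5, of the large neutral amino acid transporter, had 5.58, 5.79, 7.11 and 5.31. Each of these 3 stood apart on the 72 h array alone, and Slc6a9, of a glycine transporter, had a smaller difference of 0.83.

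Further members of the stress list followed with smaller differences. Ppp1r15a, of the subunit that directs the phosphatase of eIF2α, had a difference of 1.31, and Stc2, of a secreted glycoprotein, one of 1.15. Herpud1, of a protein of endoplasmic reticulum degradation, had 1.14, and Ern1, of the sensor IRE1α, had 1.12. The tRNA synthetase transcripts had differences of 1.12 for Cars, 0.61 for Yars and 0.52 for Mars. The co-chaperone transcript Dnajb11 was the one that was lower by 2-fold or more, with 13.53, 14.65, 13.54 and 14.08 and a difference of -1.11, which became -0.84 with scaling to the 75th percentile. Gtpbp2 at -0.51 and Cbs at -0.36 were negative too. Nupr1, of a small stress-induced nuclear protein, was bright at both times, with 8.94 at 24 h and 9.67 at 72 h, after a dim 2.65 at 0 h.

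The promoters of this list were searched for short elements of the response, in windows of 250 bases before to 50 after the start of the gene. The amino acid response element was searched as TGATGNAA on both strands and was found in 5 of the 15 genes with a promoter in the table (Atf3, Herpud1, Nupr1, Slc7a11 and Yars). It was also found in 2 of the 8 such genes of the interferon list described further on (Gbp3 and Trafd1), while 3.97% of all 32851 promoters held it. The counts of the lists are by gene and the shares of all are by promoter. The antioxidant element, searched as TGACNNNGC on both strands, was found in 5 of 15 (Ern1, Herpud1, Ppp1r15a, Slc6a9 and Stc2), in 1 of the 8 interferon genes (Ifi44) and in 12.4% of all promoters. Herpud1 held both elements. Promoters of Atf3 and Slc7a11 are shown, since their transcripts had the largest differences of the list, with the matches to TGATGNAA in capitals and in RefSeq's sequence for GRCm38.p6. The promoter of Atf3 (chr1:191183284-191183583, minus strand) holds 1 match, at -110, and that of Slc7a11 (chr3:50443564-50443863, minus strand) holds 2, at -66 and -47. A match describes the letters and is not a measured site.
Atf3 promoter: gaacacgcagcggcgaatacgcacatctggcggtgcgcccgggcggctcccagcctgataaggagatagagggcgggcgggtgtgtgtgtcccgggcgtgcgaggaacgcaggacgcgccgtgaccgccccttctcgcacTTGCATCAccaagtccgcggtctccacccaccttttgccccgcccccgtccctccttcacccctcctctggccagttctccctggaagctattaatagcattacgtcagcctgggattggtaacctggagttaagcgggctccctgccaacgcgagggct
Slc7a11 promoter: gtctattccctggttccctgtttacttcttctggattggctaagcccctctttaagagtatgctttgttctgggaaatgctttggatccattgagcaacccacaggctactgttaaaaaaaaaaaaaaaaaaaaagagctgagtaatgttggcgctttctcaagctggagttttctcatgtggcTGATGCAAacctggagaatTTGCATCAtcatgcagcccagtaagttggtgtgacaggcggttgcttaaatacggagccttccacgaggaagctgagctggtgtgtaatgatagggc

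Transcripts of macrophage and inflammatory genes were the list with the most members measured on both arrays. Of 33 genes 11 had only a dim probe. Of the 22 members, 10 were higher at 72 h by 2-fold or more and 1 was lower by 2-fold or more, with a median of 0.89. Over all probes the values were 8.1%, 7.58% and -0.04, and over all named lncRNAs 28.2%, 18.6% and 0.45. The 72 h list alone, of which 55.2% were higher by 2-fold or more, named 14 of the 22. Receptors that dampen myeloid cells stood among the higher ones. Lair1, of a collagen receptor, had 6.78, 6.14, 7.99 and 7.77 at 0, 24, 72 and 96 h, and Cd200r1, of the receptor for CD200, had 6.98, 7.21, 8.78 and 7.69. Cd52, of a short surface glycoprotein of leukocytes, had 7.57, 7.33, 9.17 and 5.53, the highest at 72 h and the lowest at 96 h.

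Among signalling molecules of this list, Il16, of a chemoattractant cytokine, had 6.86, 6.95, 8.85 and 7.04. Map3k8, of a kinase of inflammatory signalling, had 5.25, 5.77, 7.34 and 5.16. Both stood apart on the 72 h array alone. Ccl4, of a macrophage chemokine, was bright throughout, with 12.48, 13.10, 14.04 and 12.71. Plac8 was the one that was lower by 2-fold or more, with 5.68, 7.18, 5.31 and 7.07, and it followed the slide. Of the 22 members, 17 had a positive difference, and Ltbr at -0.78 and Sod2 at -0.67 were next to Plac8 among the others.

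Of 9 transcripts of interferon-stimulated genes, 8 had a positive difference, and 7 of the 9 came from the 72 h list alone. Only 2 were higher by 2-fold or more, beside 28.2% of all named lncRNAs. Sp110, of a nuclear body protein, had 5.74 at 24 h and 7.13 at 72 h, and Tmem140 had 9.24, 9.47, 10.62 and 9.72. Ifi44, the brightest of the list, had 13.80, 14.62, 15.19 and 10.87 and thus a difference of only 0.58. Gbp3, of a guanylate-binding protein, was lower at 72 h with a difference of -1.29, and it followed the slide. H2-Ob, of a chain of the class II cofactor H2-O, had a difference of 1.81, and H2-T23, of a class I molecule of the Qa-1 type, one of 0.63. The 72 h list alone named both of these as well.

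Iron handling gave 5 members, 3 of them higher by 2-fold or more, beside 8.1% of all probes and 28.2% of all named lncRNAs. None was lower by that much, and the median was 1.08, beside 0.45 over all named lncRNAs. The choice of names fixed much of this, since 3 of the 5 came from the 72 h list alone and Ftl1 from the list reduced at 24 h. Cp (ENSMUST00000150264, chr3:19969841-19989065, plus strand) is a noncoding transcript over exons of the gene for ceruloplasmin, the copper ferroxidase that loads iron onto transferrin. It had 5.61, 6.28, 10.78 and 2.62 at 0, 24, 72 and 96 h, the last of them dim, and its difference of 4.50 is 22.6-fold. The ferritin heavy chain transcript Fth1 had a difference of 1.49, and Ftl1, of the light chain, one of 1.08, which came from a low 24 h array (15.46, 13.29, 14.37 and 14.34). Slc25a37, of the mitochondrial iron importer, had 0.88, and Trf, of transferrin, -0.94.

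Mitochondrial transcripts were split, with 4 of 12 higher by 2-fold or more and 4 of 12 lower by 2-fold or more, beside 28.2% and 18.6% of all named lncRNAs. The choice of names fixed much of this. The 72 h list alone named 5 of the 12, and lists raised at 24 h but not at 72 h named the 4 lower ones. Atp5k, of a subunit of ATP synthase, had the largest difference at 2.64, with 13.58, 11.60, 14.24 and 12.34. It followed the slide, and its 72 h spot was marked as not uniform. Mrpl19, of the mitochondrial ribosome, and Ndufb4, of complex I, were higher by 1.15 each, and with scaling to the 75th percentile by 0.92 and 0.99. Atpaf2, of an assembly factor of ATP synthase, stood apart at 24 h alone with 5.71, 8.28, 6.35 and 4.89, a difference of -1.93. Stoml2 at -1.79 and Mrpl17 at -1.34 followed the slide.

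The cytoskeleton list was divided too, with 2 of 10 higher by 2-fold or more and 3 of 10 lower by 2-fold or more, beside the same 28.2% and 18.6%. Gmfg, of a factor that removes branches from actin filaments, had 6.71, 6.22, 8.76 and 5.82 and a difference of 2.54. Fyb, of an adaptor that links receptors to integrins, had 11.85, 11.83, 13.83 and 12.68 and a difference of 2.00. Both stood apart at 72 h alone. Lims1 at -1.82 and Fermt2 at -1.72, of partners of integrins in focal adhesions, and Cobl at -1.25, of an actin nucleator, were lower. Fermt2 followed the slide. With normexp background correction Fermt2 was at -0.83 and Cobl at -0.66. The signs of Gmfg, Fyb, Fermt2 and Cobl were fixed by the lists that named them, while Lims1 came from the 96 h list alone.

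Mitosis and DNA replication had 2 of 8 transcripts higher by 2-fold or more and 3 lower by 2-fold or more, with a median of -0.79. Over all named lncRNAs the values were 28.2%, 18.6% and 0.45. Lists raised at 24 h but not at 72 h named Knstrn, Haus6, Esco1, Sgol1 and Tyms, and the 72 h list alone named Spice1 and Spdl1. The signs of these were fixed by the choice, and with them most of the median. Orc5, from the 96 h list alone, had a difference of 0.36. Tyms, of the enzyme that makes thymidylate, had 10.77, 12.74, 11.01 and 13.16, a difference of -1.73 that followed the slide. Knstrn, of a kinetochore protein, had a difference of -1.84, and Sgol1, of the shugoshin that guards centromeres, -1.14. The transcripts of Spice1 and Spdl1, of spindle proteins, were higher by 2.50 and 2.20, of which Spdl1 followed the slide. Among transcripts of the ribosome and translation, Eif1 was higher by 1.59 and Rpl26 had a difference of -1.85, which followed the slide. In the lysosome list Ctsc, of cathepsin C, was at 1.04 and Slc15a3, of a peptide transporter of the lysosome, at -1.07. Of 5 matrix transcripts none was higher by 2-fold or more, and Col1a1 was the one lower, beside the same 28.2% and 18.6%. The 96 h list alone named 4 of these 5. The signs of Eif1, Rpl26, Ctsc, Slc15a3 and Col1a1 were likewise fixed by the lists that named them.

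**Figure D4:**
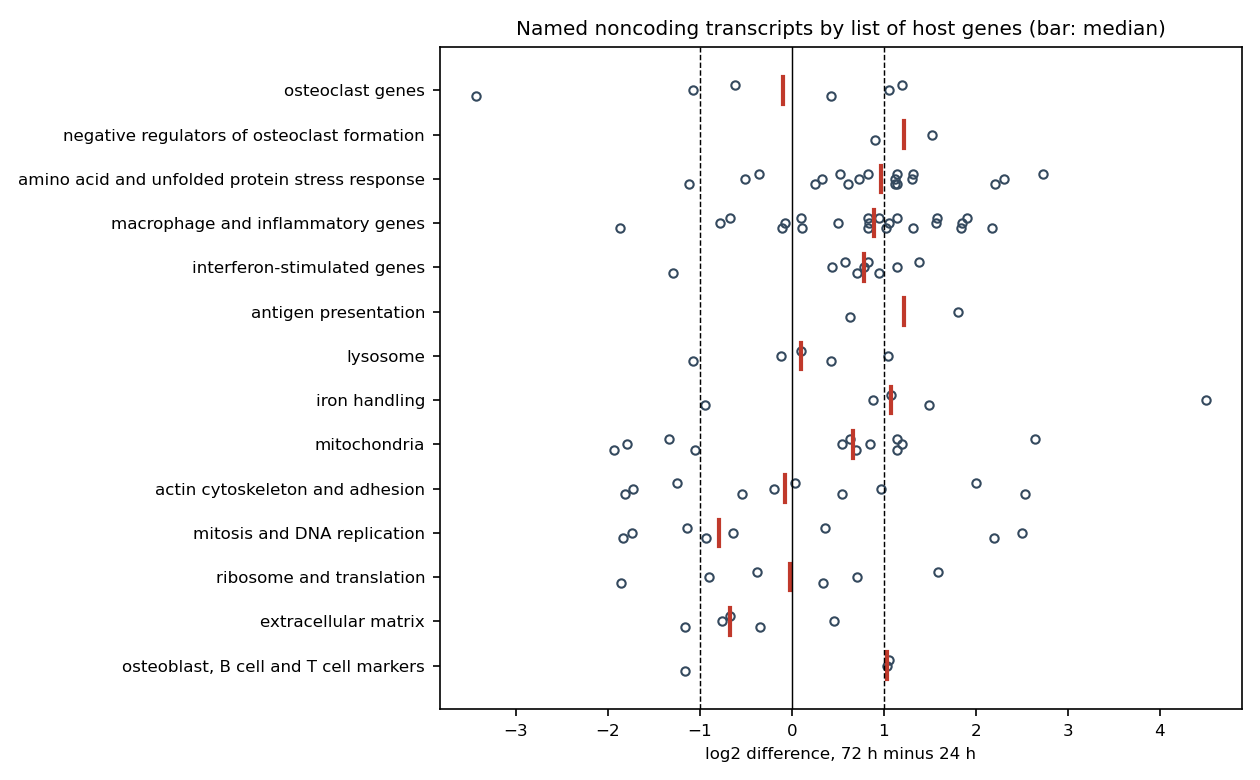
Difference in log2 signal between 72 h and 24 h (x axis) of each named noncoding transcript, as 1 open circle, in the 14 lists of host genes (y axis), with a red bar at the median of a list and dashed lines at 2-fold. The stress and macrophage lists have medians of 0.97 and 0.89, the osteoclast, cytoskeleton and ribosome lists have medians of -0.10, -0.08 and -0.02, and Cp at 4.50 and Slc9b2 at -3.43 are the outermost circles.

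Some of the named lncRNAs lay side by side on a chromosome. The region chr1:84965292-85610224 around Sp110 and its relatives held 12 members, of which 11 were higher at 72 h by 2-fold or more, 11 stood apart on the 72 h array alone, and none had a negative difference. All 12 came from the 72 h list alone, of whose members 55.2% were higher by 2-fold or more, and differences ranged from 0.74 to 2.38. This region holds repeated copies, and 4 of the 12 probes are annotated as matching other transcripts too, so that the members are not independent. A probe of BC038927 on an unplaced piece of chromosome 1 (uc029tuy.1) and one at chr1:85213798-85215395 (uc007bts.1) show this, with the runs of 10 or more bases that they share, 45 bases in all, in capitals.
BC038927 uc029tuy.1: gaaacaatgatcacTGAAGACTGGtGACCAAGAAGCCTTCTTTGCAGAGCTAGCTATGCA
BC038927 uc007bts.1: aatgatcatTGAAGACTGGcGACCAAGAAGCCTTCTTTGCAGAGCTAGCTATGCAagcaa
The difference was 2.12 for the first and 1.25 for the second, and over the 4 probes of BC038927 it lay between 1.25 and 2.38.

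A region of chromosome 7 was less uniform. Of 6 members at chr7:105809679-105928691, 5 were higher by 2-fold or more and 1 was lower. The 72 h list alone named these 5, and lists raised at 24 h and 96 h named the other, so that all signs here were fixed by the choice. Of all members that only the 72 h list named, 55.2% were higher by 2-fold or more, beside 8.1% of all probes. Gm17757 was the highest with 12.71, 11.79, 15.06 and 8.82 at 0, 24, 72 and 96 h and a difference of 3.27. It was followed by AK046587 at 1.75, AK033576 at 1.17, Gm15645 at 1.16 and 9130208D14Rik at 1.07. Mrpl17, at the edge of the same region, had -1.34. Beside Atf3 itself, 2 more members within its locus were higher, AK134771 by 1.34 and AK021325 by 0.76. Next to Slc3a2 lay BC094633 at 1.25 and Snhg1, a host of small nucleolar RNAs, at 0.64. Atf3, Slc3a2 and these neighbours were all named by the 72 h list alone, which fixed their signs too.

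Where a name had more than 1 probe, the probes did not always go the same way. There were 20 such names, 15 of them with 1 sign in all probes, and the median range between the probes of a name was 0.73. The 2 probes of A330076H08Rik had -2.35 and 0.45, and the 3 of 1810062O18Rik ran from -0.86 to 1.03. By contrast the 3 probes of D430036J16Rik ran from 0.34 to 0.57. Of the 1778 named probes, 101 are annotated as matching at least 1 other transcript.

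The classes of lncRNA were compared over all lists and within each list. Over all lists, bidirectional lncRNAs had the highest share at 72 h, with 53 of 131 higher by 2-fold or more, 13 lower and a median of 0.81. Exon sense-overlapping lncRNAs had a low median, with 133 of 520 higher, 116 lower and 0.27. Of all named lncRNAs 28.2% were higher and 18.6% lower, with a median of 0.45. The classes differed in their lists: the 72 h list alone named 87 of the 131 bidirectional and 184 of the 520 exon sense-overlapping members. Within it 55.2% and 54.9% of these were higher, and 59.4% of the intergenic ones. Within the list raised at 72 h alone the class medians lay between 0.83 and 1.09, and within that raised at 24 h alone between -1.44 and -0.86. The sign of these was fixed by the choice of the lists, so that nothing about the classes is read from them. The 96 h list alone gave medians from -0.46 for intronic antisense to 0.56 for intron sense-overlapping lncRNAs, the latter over 6 probes. Of the 768 intergenic lncRNAs, 220 were higher by 2-fold or more and 144 lower, and of the 211 natural antisense lncRNAs 54 were higher and 28 lower.

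**Figure D5:**
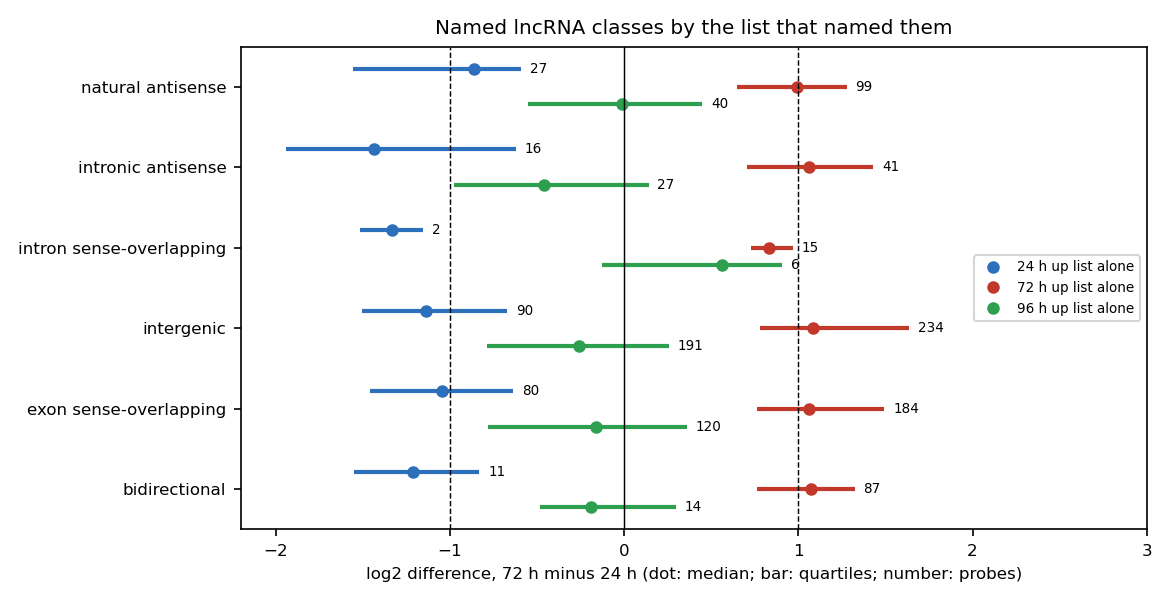
Median (dot) and quartiles (bar) of the difference in log2 signal between 72 h and 24 h (x axis) in each lncRNA class (y axis), for members named by 1 list alone, with the number of probes beside each bar. The medians of the 72 h list lie between 0.83 and 1.09 and those of the 24 h list between -1.44 and -0.86, with signs that the lists fixed.

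The largest members of each class add single cases. AK045688, a bidirectional lncRNA 60 bases from Tef, a circadian transcription factor, had 7.76, 7.64, 10.45 and 7.31, a difference of 2.81 at 72 h alone. Gm12607, antisense within an intron of Mtap, the enzyme of methionine salvage, had 14.54, 11.53, 14.69 and 11.38 and followed the slide. The bidirectional 4930532G15Rik, which starts beside Eprs, a tRNA synthetase gene, had a difference of -2.02. Among the intron sense-overlapping lncRNAs, Gm12583 was highest at 2.38, following the slide, and Gm16352 lowest at -1.70, standing apart at 24 h alone.

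The 96 h list alone, without the members that a 24 h or 72 h list also named, held few large differences. Vmn2r-ps159 was the highest, with 5.66, 5.22, 6.58 and 6.86 at 0, 24, 72 and 96 h and a difference of 1.36, followed by AK030193 at 1.28, AK154753 at 1.27 and XLOC_015250 at 1.22. AK084660 was the lowest, with 9.41, 9.55, 7.71 and 10.57 and a difference of -1.84. AK207499, which lies within Cpe and whose probe is also annotated as matching its mRNA, had 15.62, 12.67, 10.91 and 16.95 and a difference of -1.75. Here the 72 h array was the lowest of the 4 in both.

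Properties of the named probes that the lists did not use were also compared. The 88 named lncRNAs that were higher at 72 h with the slide had a median transcript length of 661.5 bases and a median brightness of 10.79, and 78 of them came from the list reduced at 24 h. The 269 that were higher at 72 h alone were longer and dimmer, with medians of 1542 bases and 7.88, and all 269 came from the 72 h list alone. These source lists follow largely from the definitions of the patterns, which include the difference from 0 h. The 200 probes that hold AATAAA had a median of 0.78, with 42.5% higher by 2-fold or more, beside 0.41 and 26.4% for the 1578 without it. These values are pooled over the lists, and no comparison within a list was made for AATAAA. A lower GC content went with higher differences over all named probes, with medians of 0.71, 0.36 and -0.09 from the lowest to the highest of 3 GC groups. Within the 72 h list alone the medians were 1.06, 1.05 and 1.01, and within the 96 h list alone they were -0.17, -0.29 and -0.09.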

How the data were processed

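Total RNA from 4 time points of RAW264.7 culture was measured on 4 one-colour Agilent arrays. The authors quantified the spots with Feature Extraction 11.0.1.1, per the file headers, and deposited the processed signal as an intensity after background subtraction, together with the flags of each spot. They also deposited a table of log2 values, quantile normalized over the 4 arrays in GeneSpring, which gives all values here. For probes well above background, it lay within 0.0215 of the log2 values rebuilt from the spots. Spots with outlier marks were kept in that table.

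The members and the lists of genes were chosen with earlier results of these data known, and the lists from symbols that the named probes carry. Names, positions and classes came from the study's supplementary lncRNA lists. Their fold columns, which compare each time point with 0 h, were not used. Of 1596 symbols on the same chromosome as in RefSeq GRCm38.p6, 1579 (98.9%) overlapped it. Named in the text were the 10 largest differences in each direction with 1 probe per gene, the 5 largest of the 96 h list alone, the largest of each class, members of the gene lists, names with 3 or more probes, antigen receptor transcripts and members with neighbours within 50 kb. Transcripts apart at both 72 h and 96 h, A330076H08Rik and the probe pair of BC038927 were picked after their values were seen.

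A probe was called past 2-fold, the limit in the study's methods. No p-value was computed, since each time point has 1 array. The count functions were tested on simulated data. Alternatives were another normalization, background correction, filter and fold limit. Precision is limited by the number of arrays. The study's arrays of circRNA and miRNA were not used here. Python 3.11.15, numpy 2.4.6, pandas 2.3.3, scipy 1.17.1, matplotlib 3.10.9, R 4.3.3 and limma 3.58.1 were used.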

Additional observations from a re-analysis of the deposited data

Results flagged for a closer look

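Of the probes that are on the arrays but not in the deposited log2 table, 96 were printed once, and 74 of these were well above background at both 24 h and 72 h. Among them 9 differed at least 2-fold between the times, 6 higher and 3 lower at 72 h, with differences from -1.91 to 1.52. That is 12.2%, beside 15.7% of all probes of the table, and the median of the 74 was 0.50, beside -0.04. They were singled out because they lie outside the main measurement and carry a signal, while none of the 15 negative control sequences was well above background on both arrays. These probes have no name here.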

How the results depend on the processing

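The median difference stayed between -0.09 and 0.02 under all settings run, and no probe named by rule and past 2-fold changed its sign, though Lamtor4, Samsn1, Sgsh, Pstpip1 and Vav1, all near 0, did under 75th percentile scaling, median centring or normexp. The counts below are given in the order all probes higher, all lower, named higher and named lower at 72 h, beside 2688, 2515, 502 and 330. Normexp on the median signal, chosen after seeing the data in place of the planned one on the mean signal, which was not run because the spot values used here hold no mean signal, gave 1732, 1331, 302 and 152. With probes at or above the median brightness they were 1543, 1149, 232 and 76, and with no filter 6824, 6540, 1132 and 1147. A limit of 1.5-fold gave 6215, 6534, 796 and 523, and one of 4-fold 531, 162, 96 and 37. Counting also the probes that were dim on 1 of the arrays, raised to a floor, gave 598 named lower. Leaving out the probes that followed the slide, also chosen after seeing the data, gave 1637 higher and 199 named lower, and the share of higher among all past 2-fold went from 51.7% to 41.5%. With probes at or above the median brightness this share was 57.3%. Except for normexp, these settings changed which probes entered or the limit itself. Why the counts moved as they did was not tested.

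Over all probes, scaling to the 75th percentile gave 2763 higher and 3183 lower (46.5% higher) and to the median 2945 and 2946. Of the 140 probes named by rule, 87 were past 2-fold. Scaling to the 75th percentile or to the median took 5 of these below 2-fold, cyclic loess 2 and normexp 24, among them Mmp9 (-0.66), Ppargc1b (0.79), Runx2 (0.74), Slc7a5 (0.65), Cars (0.77), Herpud1 (0.78) and Sp110 (0.76). LOC100043315 and Atp5k give no value where spots with outlier marks are left out. Probes near background have the least certain differences. No paired analysis was possible because each time point has 1 array.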

Other observations

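Probes well above background on only 1 of the arrays give a bound. There were 3151 such probes at 72 h, 551 of them at least 2-fold above the lowest signal that was well above background at 24 h, and 2588 at 24 h, of which 675 were at least 2-fold above the same limit at 72 h. The following cases were picked after their values were seen. Gm12665 (ENSMUST00000130092, chr11:24903982-24926050, intergenic) had a log2 signal of 17.46 at 24 h and of 2.62, 2.67 and 2.66 at 0, 72 and 96 h, dim on those arrays, so that it was at least 5065-fold higher at 24 h than at 72 h. AK083073 had 9.34 at 72 h and 2.60 at 24 h and was over 18-fold higher at 72 h. The humanlincRNA1857 probe was at least 17.4-fold and that of mouselincRNA0154 at least 14.8-fold higher at 72 h. Each of these values is 1 spot. Dok7, at least 83.1-fold higher at 24 h by its table value, had its 24 h spot marked as not uniform, with a processed signal of 2932 and a median signal of 239.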
